A study of Rattus norvegicus with 28 samples.

Results

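A set of 10 genes of inflammatory and clearing macrophages were followed in rat lung, and 7 of the 10 were found among the 17002 genes of the expression table. They were chosen by name: the inflammatory genes Irg1 (the table's name for Acod1), Gpr84 and Nos2, the clearance receptors Mertk and Axl, the bridging ligands Gas6, Pros1 and Mfge8, and the uptake receptors Marco and Mrc1. No row of the table bears the name Pros1, Marco or Mrc1, and those 3 genes were not analysed here. All 7 genes found were among the 14908 genes tested, which had a mean normalised read count of at least 10 over the libraries.

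The samples came from Sprague Dawley rats, each a piece of the right upper lobe of the lung, and gave 28 libraries of polyadenylated RNA in 8 groups. Unventilated lungs were either uninjured (control_blank, n = 3) or taken 14 days after chronic injury had been induced (control_chronic, n = 5). The ventilated lungs came from 3 states. With no injury, 4 libraries had received a constant tidal volume (healthy_VCV) and 3 a varying tidal volume (healthy_noisy). With acute injury these numbers were 3 (acute_VCV) and 4 (acute_noisy). With chronic injury they were 3 (chronic_VCV) and 3 (chronic_noisy). No unventilated group had acute injury. The labels used here give neither the agent of the acute or chronic injury nor the age of the animals nor the hours of ventilation, and they do not say that each library came from its own animal, so p-values measure the spread between these libraries only.

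Macrophages exposed to microbial products or cytokines switch on Irg1, whose enzyme makes itaconate, Gpr84, a cell surface receptor proposed to sense medium-chain fatty acids, and Nos2, the inducible nitric oxide synthase. Macrophages also remove dying cells. Mertk and Axl are receptor tyrosine kinases that recognise phosphatidylserine on dying cells through soluble bridging proteins. Gas6 serves both and protein S (Pros1) serves Mertk, while Mfge8 bridges phosphatidylserine to integrins. In the lung this uptake limits inflammation, and alveolar macrophages carry Axl and Mertk, while Marco and Mrc1 are scavenger and mannose receptors of the same cells.

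Promoter sequences of 6 of the 7 genes were taken from RefSeq (build GRCr8, 250 bases before to 50 bases after the start). Irg1 and Gpr84 are shown because their levels ran nearly in parallel over the libraries. Mertk is shown as a clearance receptor whose levels followed theirs less closely. The Irg1 promoter lies at chr15:86286289-86286588 (+ strand), that of Gpr84 at chr7:136324524-136324823 (- strand) and that of Mertk at chr3:136392324-136392623 (+ strand). Capitals mark the single motif match in Irg1 and every CG dinucleotide in Mertk.
Irg1: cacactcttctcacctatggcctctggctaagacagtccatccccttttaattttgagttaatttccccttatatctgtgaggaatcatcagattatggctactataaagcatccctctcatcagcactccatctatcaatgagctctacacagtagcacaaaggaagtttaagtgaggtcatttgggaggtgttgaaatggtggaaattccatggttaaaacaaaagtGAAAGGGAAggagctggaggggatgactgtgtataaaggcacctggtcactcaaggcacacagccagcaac
Gpr84: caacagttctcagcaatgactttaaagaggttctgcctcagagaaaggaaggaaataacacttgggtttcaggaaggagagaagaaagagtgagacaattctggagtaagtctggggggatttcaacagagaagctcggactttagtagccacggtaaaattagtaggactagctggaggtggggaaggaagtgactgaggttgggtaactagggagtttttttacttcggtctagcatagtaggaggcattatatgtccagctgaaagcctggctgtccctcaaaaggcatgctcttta
Mertk: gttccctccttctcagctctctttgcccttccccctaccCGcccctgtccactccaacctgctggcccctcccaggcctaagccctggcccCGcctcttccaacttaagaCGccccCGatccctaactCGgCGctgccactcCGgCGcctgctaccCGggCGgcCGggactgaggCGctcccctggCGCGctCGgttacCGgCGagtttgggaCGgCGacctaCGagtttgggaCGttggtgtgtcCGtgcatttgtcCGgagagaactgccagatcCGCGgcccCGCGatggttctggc
The 5 motifs below were searched on both strands: kappa-B (GGGNNTTCC), the core of the interferon-stimulated element (TTCNNTTTC), the STAT site (TTCNNNGAA), AP-1 (TGANTCA) and C/EBP (TTNNGCAA). Of 33469 promoters of this length, 5.92%, 9.71%, 8.87%, 7.33% and 10.6% held them, in that order. The 6 promoters held 1 match in all, the interferon-stimulated element core in Irg1, on the reverse strand, starting 21 bases before the start of the gene. A match describes letters only. No promoter of Nos2 is shown. The promoters of Irg1 and Gpr84 were 44.0% and 45.3% G or C with 0 and 3 CG dinucleotides, and those of Mertk, Axl, Gas6 and Mfge8 were 67.3%, 63.0%, 65.3% and 65.7% with 27, 11, 26 and 16. The medians over all promoters were 51.7% and 7.

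Values are normalised read counts, that is, read counts divided by a size factor per library. Depth ran from 6024093 to 31923838 reads, and was lowest in control_chronic (6024093 to 17162741). Titles open with a number whose leading digits are 12, 14, 15 or 18, termed number series, with a meaning that no label gives. Series 12 held all of control_blank and acute_VCV, and series 18 all of control_chronic. Series 14 held healthy_VCV 025, 057 and 060, acute_noisy 047 and 050 and all of chronic_noisy, and series 15 held all other libraries. Of the 14 comparisons between groups below, acute_VCV with control_blank is the only one between whole groups of 1 series. In the others of the 14 with an unventilated group, series and group cannot be told apart. The same holds for acute_VCV against healthy_VCV or acute_noisy, and for chronic_noisy against chronic_VCV or healthy_noisy. For the tissue label, 8 of 10 markers of alveolar type 2 cells were found, and they summed to 289270 to 841838 over the libraries. In such whole tissue, a change in the number of cells of a type and a change in RNA per cell cannot be told apart.

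Differences are given on the scale log2(value + 1), ± SE, from limma with Benjamini-Hochberg adjustment over all genes tested, and a gene is said to have risen or fallen where the adjusted p was below 0.05. All 3 inflammatory genes and both clearance receptors were higher in ventilated than in unventilated uninjured lungs, which were of different number series. Against control_blank, 5 of 7 genes rose in healthy_VCV, where 29.3% of all genes rose, and Gas6 fell, where 28.1% of all genes fell. In healthy_noisy the same 5 genes rose (17.5% of all genes) and 0 fell (14.6%). With acute injury, 5 rose in acute_VCV (20.6%), now with Mfge8 and without Axl, and 5 in acute_noisy (31.3%), while Gas6 fell in both (16.7% and 28.4%). The rises were above the share over all genes in each of the 4 comparisons, and the single fall was not. Because the genes were chosen with earlier results of these data known, counts above the share are a description and no test. These 4 comparisons share the control_blank libraries.

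In control_chronic against control_blank 1 gene, Axl, rose (9.3% of all genes) and 0 fell (5.55%), a count near the share over all genes. Over control_chronic, Irg1, Gpr84, Nos2 and Mertk rose, 4 of 7 in chronic_VCV (6.89% of all genes) and the same 4 in chronic_noisy (19.1%). Axl did not pass the test in either. Number series and group cannot be told apart in any of these comparisons. Gas6 fell in chronic_noisy (18.1% of all genes fell) and no gene of the set fell in chronic_VCV (7.9%). The heat map of differences shows all 14 comparisons between groups.

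**Figure D1:**
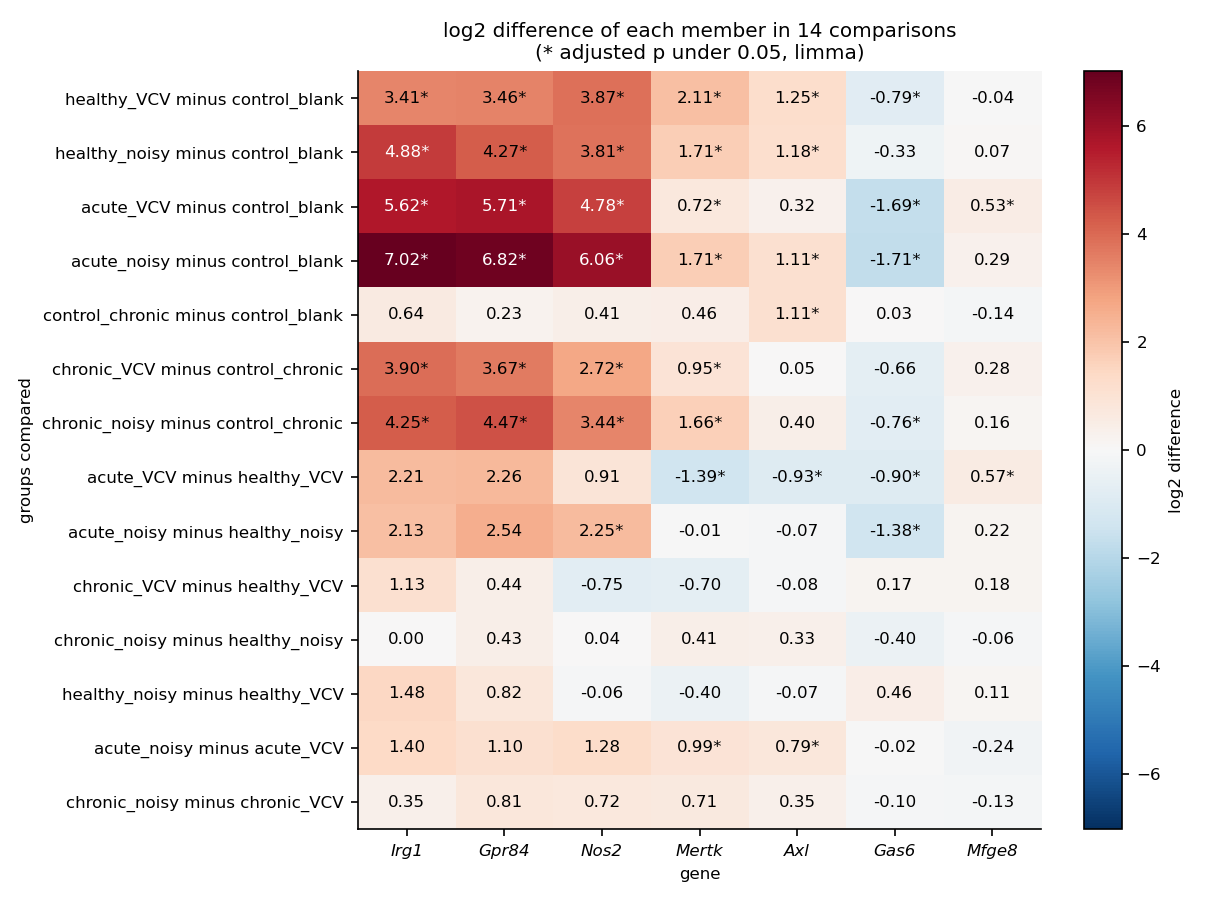
log2 differences of the 7 genes (columns) in 14 comparisons between groups (rows), by limma over 14908 genes, with red for higher and blue for lower in the group named first and a star where the adjusted p was below 0.05. Irg1, Gpr84 and Nos2 are starred in all 6 comparisons of a ventilated with an unventilated group, up to 7.02, 6.82 and 6.06 in acute_noisy, and Gas6 is lower in each starred cell.

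Irg1 (ENSRNOG00000009919) was scarce without ventilation. In control_blank its normalised read counts were 8.10, 17.7 and 5.59, and in control_chronic 6.35, 11.9, 25.5, 18.5 and 21.4. They were 12.4, 66.7, 452 and 357 in healthy_VCV and 333, 224 and 384 in healthy_noisy. Every healthy_noisy library was above every unventilated one, whereas healthy_VCV 025, at 12.4, lay within the control_blank range. Acutely injured lungs held 63.9, 621 and 3266 in acute_VCV and 1683, 7263, 1352 and 197 in acute_noisy. Chronically injured lungs held 303, 153 and 301 in chronic_VCV and 181, 218 and 732 in chronic_noisy. Values within acute_VCV thus spanned 51.1-fold, within acute_noisy 36.9-fold and within healthy_VCV 36.4-fold, against 1.71-fold in healthy_noisy. Ordered by mean log2 level, the groups ran from control_blank through control_chronic, healthy_VCV, chronic_VCV, healthy_noisy, chronic_noisy and acute_VCV to acute_noisy, and each neighbour in that order overlapped with the next.

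Irg1 rose by 3.41 ± 1.14 in healthy_VCV (10.6-fold, adjusted p = 0.0139) and by 4.88 ± 1.22 in healthy_noisy (29.6-fold, adjusted p = 0.00463). The first call was lost without healthy_VCV 060 (2.73, adjusted p = 0.0556) or 062 (2.84, adjusted p = 0.0505), and the value was 4.42 without 025. With acute injury Irg1 rose by 5.62 ± 1.22 in acute_VCV and by 7.02 ± 1.14 in acute_noisy (adjusted p = 0.00101 and 2.46e-05). The rise in acute_VCV was 4.27 without library 049 and 7.10 without 040, and that in acute_noisy 6.21 without 047 and 7.94 without 053. In chronic injury it rose over control_chronic by 3.90 ± 1.09 in chronic_VCV (adjusted p = 0.0187) and by 4.25 ± 1.09 in chronic_noisy (adjusted p = 0.00484). The call in chronic_VCV was lost without 067, without 073 (adjusted p = 0.0526 and 0.0652) or without the 2 control_chronic libraries of lowest depth (3.42, adjusted p = 0.0867), and the value in chronic_noisy was 3.63 without 084.

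**Figure D2:**
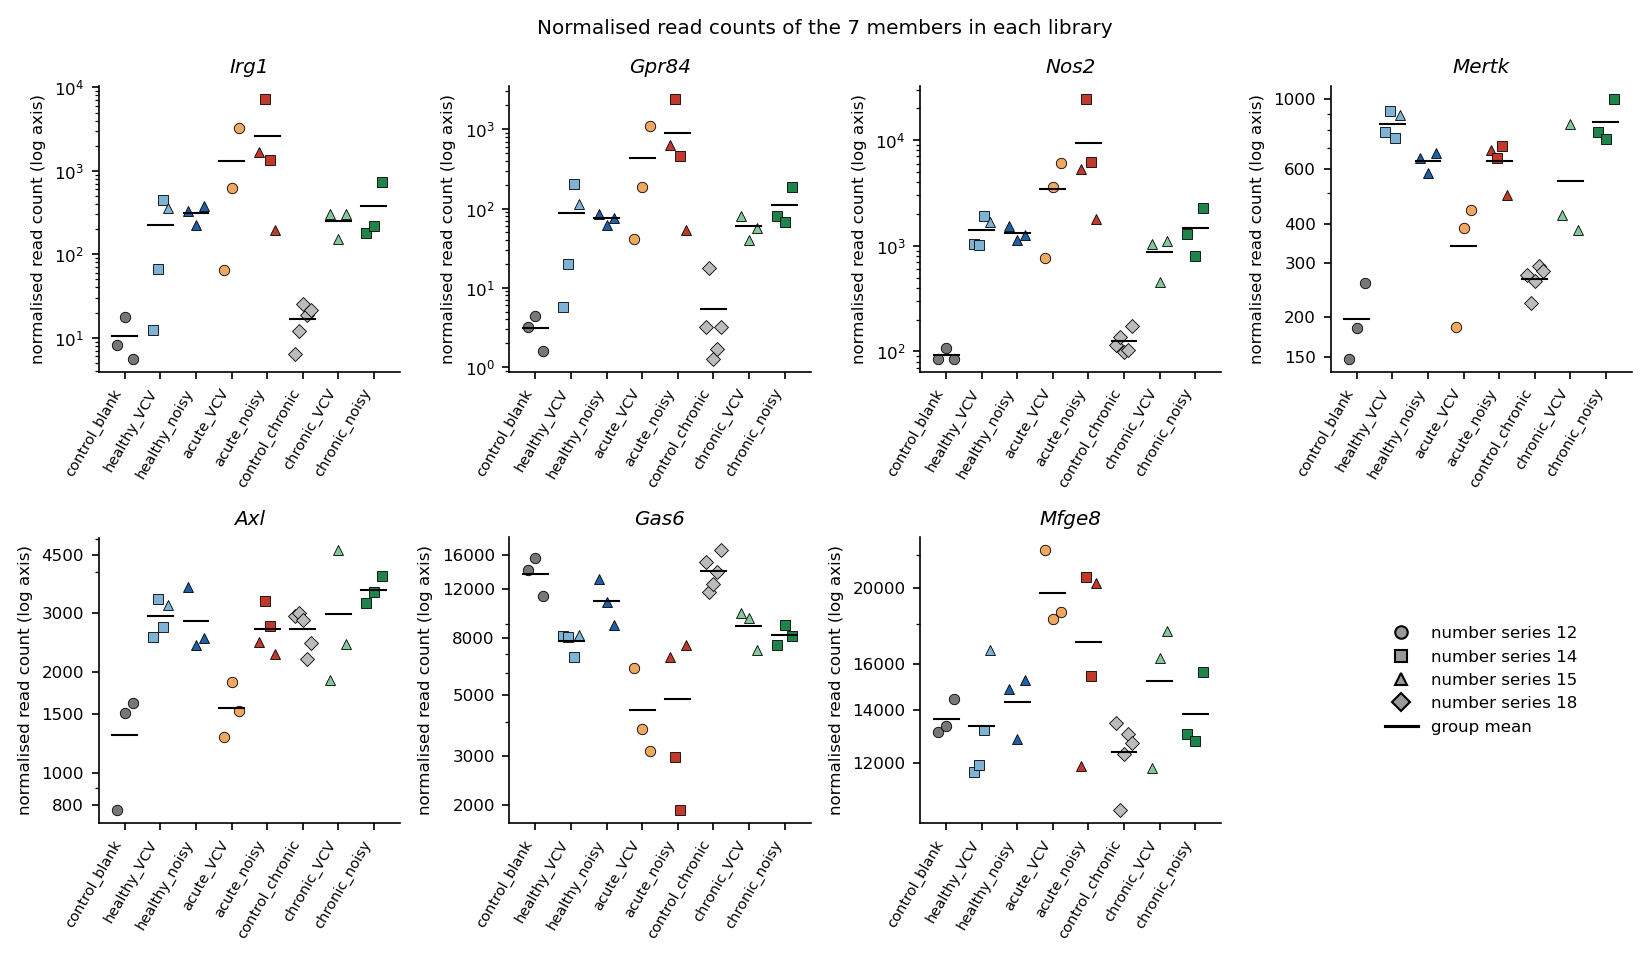
Normalised read counts (log axes) of the 7 genes in each of 28 libraries by group, with the symbol giving the number series and the bar the arithmetic mean of the group. Irg1, Gpr84 and Nos2 are lowest on average in control_blank and control_chronic and highest in the acutely injured groups. Irg1 runs from 63.9 to 3266 in acute_VCV, and Irg1 and Gpr84 also spread widely in healthy_VCV (36.4-fold and 35.7-fold). Gas6 shows its lowest values in the acutely injured groups.

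Gpr84 (ENSRNOG00000036834) followed Irg1 closely. It was at 3.24, 4.43 and 1.60 in control_blank and at 3.18, 17.8, 1.27, 1.68 and 3.21 in control_chronic, values that rest on only 1 to 9 reads per library. Uninjured ventilated lungs held 5.80, 19.7, 207 and 115.3 in healthy_VCV and 86.2, 62.7 and 76.7 in healthy_noisy. All 7 were above all of control_blank, healthy_VCV 025 by the least. Acutely injured lungs reached 41.1, 187 and 1090 in acute_VCV and 626, 2410, 456 and 53.8 in acute_noisy. Chronically injured ventilated lungs held 81.1, 40.6 and 56.6 in chronic_VCV and 80.4, 68.2 and 187 in chronic_noisy. All 6 of these exceeded the highest control_chronic value, that of control_chronic_114.

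Gpr84 rose by 3.46 ± 1.11 in healthy_VCV, by 4.27 ± 1.19 in healthy_noisy, by 5.71 ± 1.19 in acute_VCV and by 6.82 ± 1.11 in acute_noisy (adjusted p = 0.0106, 0.00928, 0.000672 and 2.48e-05). Because the control values are near the added 1, these understate the change. The value in healthy_VCV was 4.34 without 025 and 2.70 without 060, that in acute_VCV 6.86 without 040 and 4.51 without 049, and that in acute_noisy 6.0 without 047 and 7.82 without 053. In chronic injury Gpr84 rose by 4.47 ± 1.06 in chronic_noisy (adjusted p = 0.00288). It rose by 3.67 ± 1.06 in chronic_VCV (adjusted p = 0.0227), a call that ended with edgeR on recovered reads (3.54, adjusted p = 0.0691), with 10 in place of 1 as the added value (2.22, adjusted p = 0.0937), and without control_chronic_115 or any of the chronic_VCV libraries 067, 069 and 073 (adjusted p = 0.0503, 0.0675, 0.0527 and 0.064).

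Nos2 (ENSRNOG00000011023) separated ventilated from unventilated lungs without overlap. Its values were 85.1, 107 and 85.5 in control_blank and 114.4, 137, 98.1, 103 and 173 in control_chronic. The lowest ventilated library of all, chronic_VCV 069, stood at 454. In healthy_VCV the values were 1038, 1025, 1918 and 1666, and in healthy_noisy 1531, 1128 and 1278. In acute_VCV they were 764, 3568 and 6075, and in acute_noisy 5343, 24524, 6243 and 1786. The chronic groups held 1045, 454 and 1115 (chronic_VCV) and 1302, 800 and 2292 (chronic_noisy). Libraries acute_VCV 049 and acute_noisy 047 were the highest of their groups for Irg1, Gpr84 and Nos2 alike, and acute_VCV 040 and acute_noisy 053 the lowest.

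Nos2 rose by 3.87 ± 0.62 in healthy_VCV (14.6-fold, adjusted p = 2.03e-05) and by 3.81 ± 0.66 in healthy_noisy (14.0-fold, adjusted p = 0.000275). It rose by 4.78 ± 0.66 in acute_VCV (27.4-fold, adjusted p = 1.38e-05) and by 6.06 ± 0.62 in acute_noisy (66.6-fold, adjusted p = 2.27e-07). These were 5.65 without acute_VCV 040, 4.15 without acute_VCV 049, 5.39 without acute_noisy 047 and 6.65 without acute_noisy 053. Over control_chronic it rose by 2.72 ± 0.59 in chronic_VCV and by 3.44 ± 0.59 in chronic_noisy (adjusted p = 0.00392 and 0.000276).

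Acutely injured lungs were then compared with uninjured lungs ventilated in the same mode. For acute_VCV and healthy_VCV number series and group cannot be told apart, so these differences cannot be assigned to the injury. Under constant ventilation 1 of 7 genes rose (26.1% of all genes) and 3 fell (26.4%), none of them an inflammatory gene: Irg1, Gpr84 and Nos2 differed by 2.21 ± 1.14, 2.26 ± 1.11 and 0.91 ± 0.62 (adjusted p = 0.108, 0.0916 and 0.224), and edgeR called Irg1 and Gpr84 (adjusted p = 0.0312 and 0.0425). These rest on single libraries: without acute_VCV 040 all 3 passed by limma (3.69, 3.398 and 1.78, adjusted p = 0.0114, 0.0223 and 0.0192), without healthy_VCV 060 Irg1 and Gpr84 passed (2.89 and 3.01, adjusted p = 0.0462 and 0.0303), and without acute_VCV 049 the differences were 0.87, 1.05 and 0.28. Under variable ventilation Nos2 rose by 2.25 ± 0.62 (4.75-fold, adjusted p = 0.0117), 1 of 7 where 12.9% of all genes rose, and Gas6 was the 1 gene that fell (13.9%). The differences of Irg1 and Gpr84 there were 2.13 ± 1.14 and 2.54 ± 1.11 (adjusted p = 0.161 and 0.0881), and edgeR called both (adjusted p = 0.0336 and 0.0174). By limma both passed without acute_noisy 053 (3.05 and 3.55, adjusted p = 0.0327 and 0.0107), and they were 1.32 and 1.73 without acute_noisy 047.

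The number series moved with these values. The Nos2 call was lost without acute_noisy 047 (1.58, adjusted p = 0.0639) or healthy_noisy 061 (2.14, adjusted p = 0.0537), was 2.84 without acute_noisy 053, and was lost with the series as a covariate (1.76, adjusted p = 0.121). Within series 15, acute_noisy 046 and 053 against healthy_noisy gave 0.91 ± 0.74 for Irg1, 1.29 ± 0.82 for Gpr84 and 1.25 ± 0.48 for Nos2, with adjusted p = 0.818, 0.752 and 0.574, in a fit that called 0 of all 14908 genes, so the lack of calls there says nothing of these genes. Within series 14, acute_noisy 047 and 050 against the 3 healthy_VCV libraries, which differ from them in both injury and mode, gave 5.40 ± 1.48, 5.09 ± 1.42 and 3.29 ± 0.66 (adjusted p = 0.0259, 0.0276 and 0.00742). Injury, mode and library cannot be told apart in the second of these.

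Between variable and constant ventilation no inflammatory gene was called by limma. In acute_noisy against acute_VCV, Irg1, Gpr84 and Nos2 differed by 1.40 ± 1.14, 1.10 ± 1.11 and 1.28 ± 0.62 (adjusted p = 0.378, 0.484 and 0.130). Nos2 passed without acute_VCV 049 (1.90), without acute_noisy 053 (1.88) and with the series 14 libraries of acute_noisy only (2.28, adjusted p = 0.00777). Irg1 and Gpr84 were -0.08 and -0.04 without acute_VCV 040 and 2.74 and 2.31 without acute_VCV 049. In uninjured lungs 0 of 7 genes were called by limma in either direction, where 4.31% of all genes rose and 6.01% fell, 0 had an unadjusted p under 0.05 and edgeR called 0. In chronic_noisy against chronic_VCV limma called 0 (0.563% rose and 1.86% fell), 1 gene, Mertk, had an unadjusted p under 0.05 and edgeR called 0. Nor was any of the 7 genes called between chronically injured and uninjured ventilated lungs. In chronic_VCV against healthy_VCV 0 were called by limma (1.64% rose and 0.818% fell), with Mertk the 1 gene at an unadjusted p under 0.05 and 0 called by edgeR. In chronic_noisy against healthy_noisy 0 were called by limma (2.27% rose and 2.42% fell), with 0 at an unadjusted p under 0.05 and 0 by edgeR.

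Over the 28 libraries the 3 inflammatory genes ran together, as a description over libraries that share groups and series. Pearson's r of the log2 levels was 0.964 between Irg1 and Gpr84, 0.933 between Irg1 and Nos2 and 0.944 between Gpr84 and Nos2. With Gas6 the r was -0.76 for Irg1, -0.794 for Gpr84 and -0.83 for Nos2, and with Axl it was 0.287, 0.251 and 0.28. With Mertk it was 0.618, 0.591 and 0.679, and with Mfge8 0.481, 0.46 and 0.478. The scatter of Gpr84 against Irg1 shows a single line from the control libraries to acute_noisy 047, on which healthy_VCV 025 lies next to the controls although that library had a Nos2 value of 1038.

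**Figure D3:**
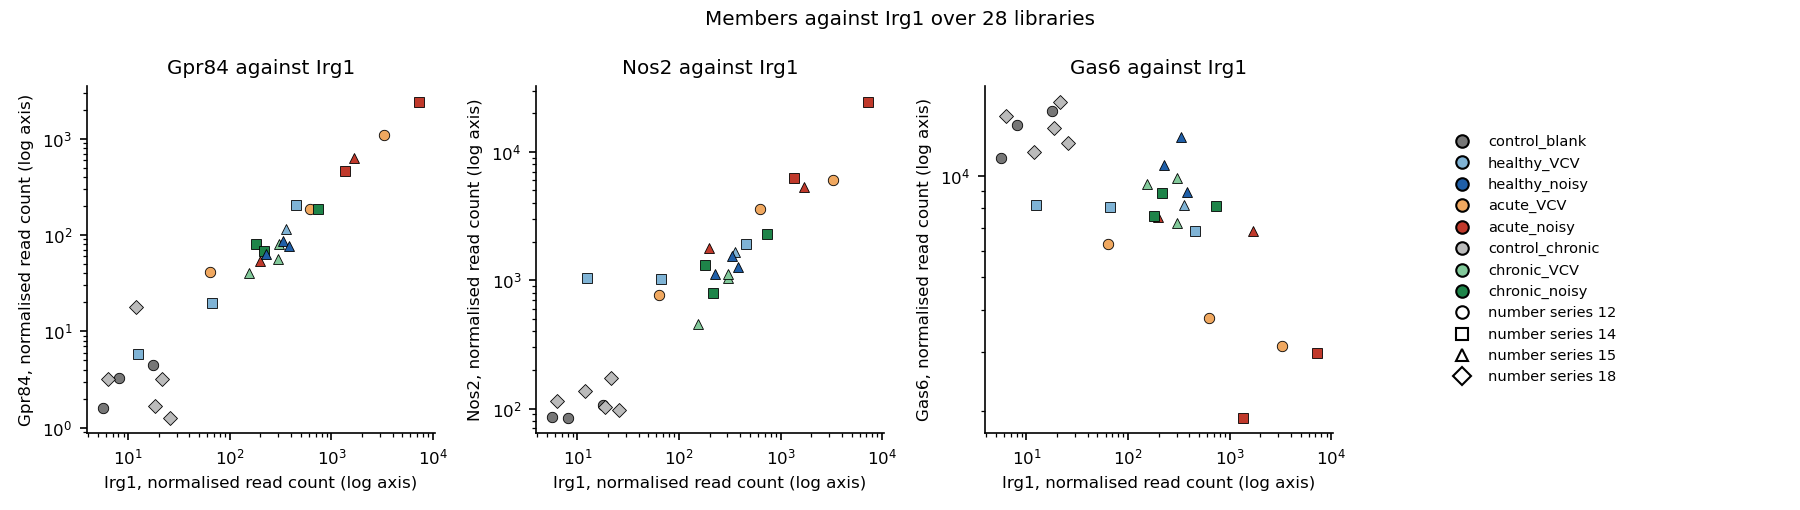
Gpr84, Nos2 and Gas6 against Irg1 in normalised read counts (log axes), 1 point for each of 28 libraries, with colour for the group and symbol for the number series. Gpr84 and Nos2 climb with Irg1 up to acute_noisy 047 (7263 for Irg1, 2410 for Gpr84 and 24524 for Nos2), and Gas6 is lower where Irg1 is higher.

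Markers of leukocytes moved with these genes to differing degrees. The 16 neutrophil markers found of 20 summed to 2711 to 4850 in control_chronic, 5262 to 7240 in control_blank, 24440 to 41162 in healthy_VCV, 30889 to 41591 in healthy_noisy, 12524 to 30866 in chronic_VCV and 21524 to 40683 in chronic_noisy. In acute_VCV they summed to 35397 to 136807 and in acute_noisy to 29950 to 114898, with library 040 and library 053 the lowest of those groups, as for Irg1. The sum over the 15 macrophage markers ran from 245186 to 274804 in control_blank and from 222943 to 299958 in control_chronic. Under constant ventilation it ran from 191935 to 307964 (healthy_VCV), 257393 to 276961 (acute_VCV) and 195736 to 316620 (chronic_VCV), and under variable ventilation from 242669 to 294690 (healthy_noisy), 215366 to 272085 (acute_noisy) and 291723 to 361941 (chronic_noisy). Their mean log2 level, in which abundant genes weigh no more than scarce ones, was 11.05 to 11.32 in control_blank, 11.25 to 11.54 in control_chronic, 11.59 to 12.26 in acute_VCV and 11.60 to 12.48 in acute_noisy, and 11.52 to 12.36 over the other ventilated groups. The 10 monocyte markers summed to 11044 to 18272 in control_blank, 25066 to 52514 in healthy_VCV and 28116 to 87083 in acute_noisy. No marker of these 3 lists was at 0 throughout a group. Pearson's r of the level with the mean log2 level of the neutrophil markers was 0.881 for Irg1, 0.905 for Gpr84 and 0.955 for Nos2. With that of the macrophage markers it was 0.863, 0.878 and 0.85, and with that of the monocyte markers 0.759, 0.785 and 0.844. The part of neutrophils, monocytes or macrophage number in the results was not tested.

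**Figure D4:**
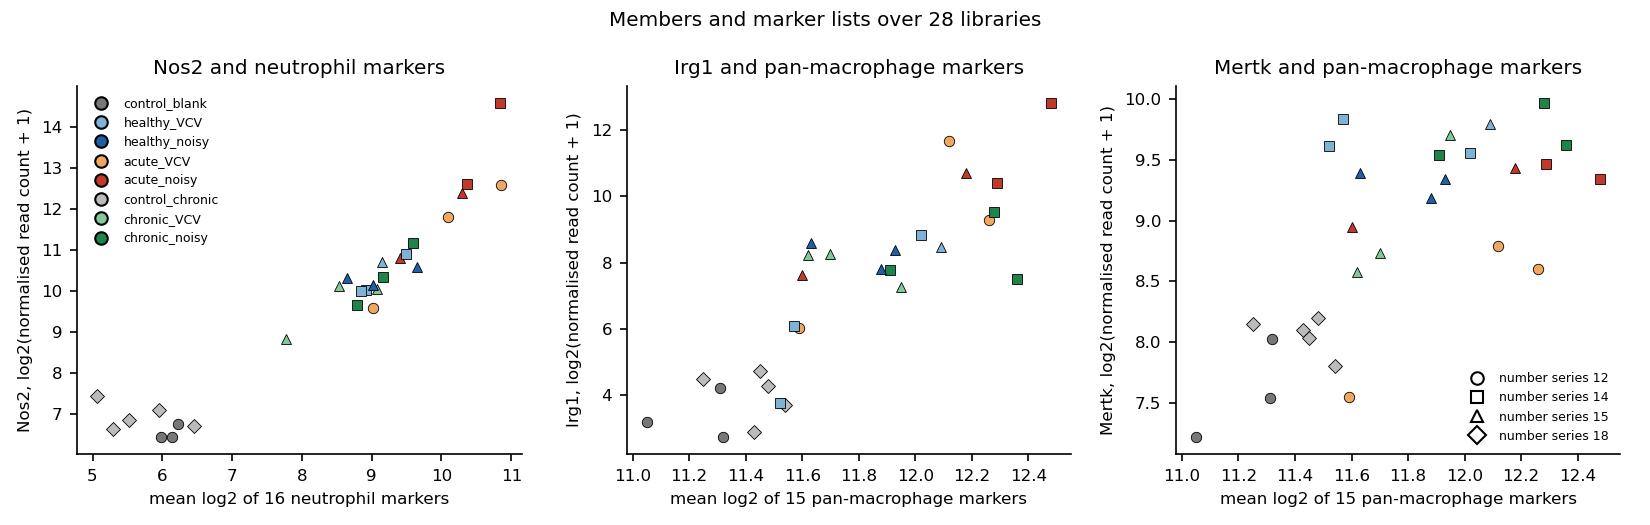
Nos2 against the mean log2 level of 16 neutrophil markers, and Irg1 and Mertk against that of 15 macrophage markers, 1 point for each of 28 libraries on log2 axes, with colour for the group and symbol for the number series. Nos2 rises with the neutrophil markers (r = 0.955), and Mertk in acute_VCV is low for its macrophage marker level.

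Mertk (ENSRNOG00000017319) was lowest in unventilated lungs. It was at 148, 185 and 259 in control_blank and at 273, 222, 261, 293 and 283 in control_chronic. Ventilated uninjured lungs held 783, 915, 751 and 889 in healthy_VCV and 647, 581 and 672 in healthy_noisy, all far above the controls. The difference of healthy_noisy from healthy_VCV was not called (-0.40 ± 0.25, adjusted p = 0.285), but passed in a fit limited to these groups (adjusted p = 0.0303). Most healthy_VCV libraries were of another number series than healthy_noisy. With acute injury the values were 186, 387 and 441 in acute_VCV and 689, 648, 707 and 494 in acute_noisy. Every acute_VCV library was below every other ventilated library of uninjured or acutely injured lungs. Chronic injury gave 426, 832 and 382 in chronic_VCV, where library 069 stood alone, and 786, 745 and 1002 in chronic_noisy. By mean log2 level the order was control_blank, control_chronic, acute_VCV, chronic_VCV, acute_noisy, healthy_noisy, healthy_VCV and chronic_noisy. Of neighbours in that order, only healthy_noisy and healthy_VCV had ranges that did not overlap, and their difference was not called in the main fit.

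Mertk rose over control_blank by 2.109 ± 0.25 in healthy_VCV (4.31-fold, adjusted p = 1.26e-06), by 1.71 ± 0.27 in healthy_noisy (3.28-fold, adjusted p = 0.000126) and by 1.71 ± 0.25 in acute_noisy (3.26-fold, adjusted p = 9.06e-06). In acute_VCV it rose by 0.72 ± 0.27 (1.65-fold, adjusted p = 0.0393), with groups that overlapped. That call was lost without control_blank 016 or 021 or acute_VCV 045 or 049 (adjusted p = 0.181, 0.0892, 0.158 and 0.232) and in a fit limited to the groups compared (adjusted p = 0.19). Over control_chronic Mertk rose by 0.95 ± 0.24 in chronic_VCV (1.93-fold, adjusted p = 0.0107), lost without chronic_VCV 069 (0.60, adjusted p = 0.122), and by 1.66 ± 0.24 in chronic_noisy (3.15-fold, adjusted p = 6.05e-05). Chronic injury alone gave 0.46 ± 0.24 (adjusted p = 0.188).

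Axl (ENSRNOG00000020716) rose in the same uninjured lungs but also with chronic injury alone. Its values were 771, 1506 and 1613 in control_blank, with library 016 the low one, and 2946, 3010, 2863, 2190 and 2440 in control_chronic. Uninjured ventilated lungs held 2546, 3319, 2741 and 3175 in healthy_VCV and 3601, 2410 and 2523 in healthy_noisy. None of these 12 libraries overlapped with control_blank. Acutely injured lungs held 1275, 1863 and 1535 in acute_VCV, overlapping with control_blank, and 2468, 3277, 2753 and 2263 in acute_noisy. Chronically injured ventilated lungs held 1897, 4633 and 2422 in chronic_VCV and 3234, 3487 and 3876 in chronic_noisy. In the order of mean log2 levels control_blank and acute_VCV came first, and from acute_noisy upward each neighbour overlapped with the next.

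Axl rose over control_blank by 1.25 ± 0.25 in healthy_VCV (2.38-fold, adjusted p = 0.000196), by 1.18 ± 0.26 in healthy_noisy (adjusted p = 0.00212) and by 1.11 ± 0.25 in acute_noisy (adjusted p = 0.000576). In acute_VCV the difference was 0.32 ± 0.26 (adjusted p = 0.356). In control_chronic Axl rose by 1.11 ± 0.24 (2.17-fold, adjusted p = 0.00646), a call lost without control_blank 016 (0.78, adjusted p = 0.108). Over control_chronic it differed by 0.05 ± 0.24 in chronic_VCV and 0.40 ± 0.24 in chronic_noisy (adjusted p = 0.906 and 0.186), and the second passed in a fit limited to the groups compared (adjusted p = 0.0179).

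**Figure D5:**
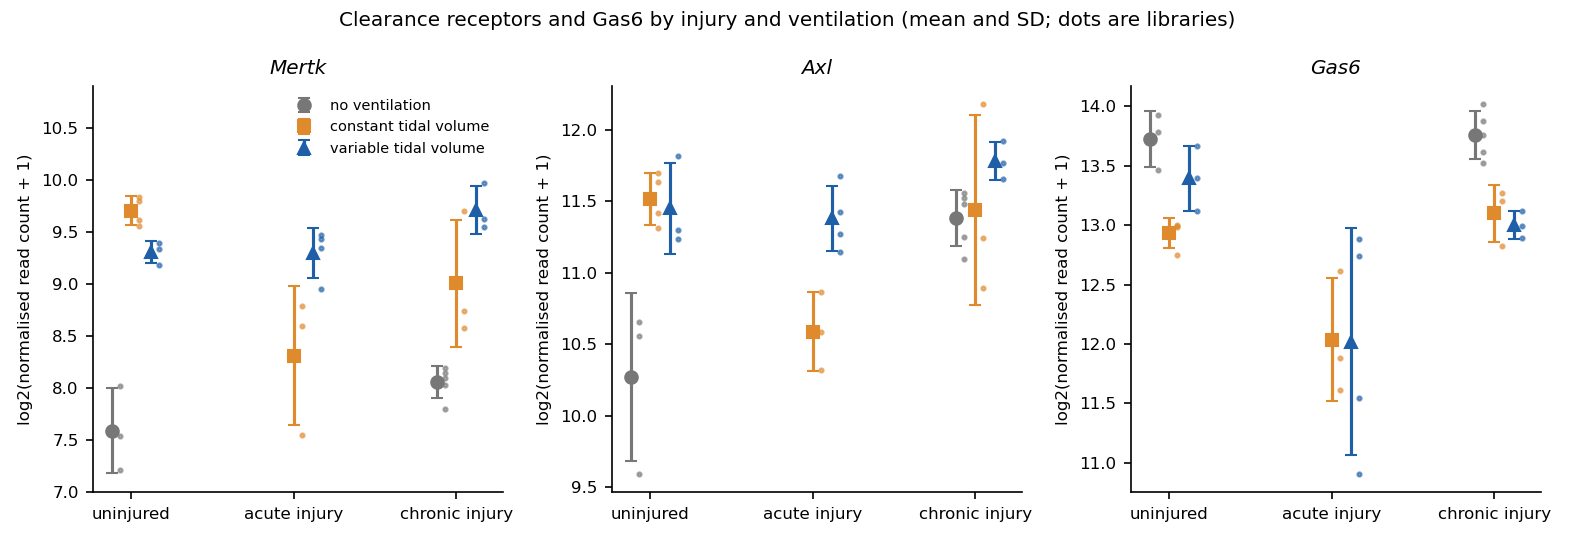
Mertk, Axl and Gas6 as mean ± SD of log2(normalised read count + 1) by injury (horizontal axis) and ventilation (colour and symbol), with dots for libraries. Mertk and Axl in acute_VCV lie below both acute_noisy and healthy_VCV, and Gas6 is lowest in both acutely injured groups.

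Both receptors were lower in acute_VCV than in the groups beside it. Against healthy_VCV, Mertk fell by 1.39 ± 0.25 (2.62-fold, adjusted p = 8.33e-05) and Axl fell by 0.93 ± 0.25 (1.9-fold, adjusted p = 0.00312). Against acute_VCV, Mertk was higher in acute_noisy by 0.99 ± 0.25 (1.98-fold, adjusted p = 0.00898) and Axl by 0.79 ± 0.25 (1.73-fold, adjusted p = 0.0243), 2 of 7 genes where 11.9% of all genes rose, and 0 fell (12.3%). The Mertk call in that comparison was lost without acute_VCV 040 (0.60, adjusted p = 0.116), and the Axl call without acute_VCV 040 or 049 or acute_noisy 047 or 050 (adjusted p = 0.142, 0.0501, 0.069 and 0.0541). A fit limited to these groups left both differences as they were and called neither (adjusted p = 0.0903 and 0.0587), but it called 0 of all 14908 genes. The acute_noisy libraries of series 15 alone gave 0.88 and 0.62 (adjusted p = 0.0615 and 0.17). All of acute_VCV belonged to series 12 and none of healthy_VCV or acute_noisy did, so series and group cannot be told apart here. Under variable ventilation acute injury left Mertk at -0.01 ± 0.25 and Axl at -0.07 ± 0.25 (adjusted p = 0.983 and 0.85).

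The effect of the mode itself differed between acutely injured and uninjured lungs for Mertk, in a contrast that crosses number series. The difference between the 2 mode effects was 1.38 ± 0.36 (adjusted p = 0.00457), 1 of 7 genes higher where 19.6% of all genes were, and 0 lower (19.4%). For Axl it was 0.86 ± 0.35 (adjusted p = 0.0548), which passed with edgeR (0.92, adjusted p = 0.0447). The difference between constant ventilation and no ventilation also varied with prior injury, and in both contrasts series and group cannot be told apart. It was smaller in chronically injured than in uninjured lungs by 1.16 ± 0.35 for Mertk and 1.19 ± 0.34 for Axl, tested as differences of -1.16 and -1.19 (adjusted p = 0.0216 and 0.0172), 2 of 7 genes lower where 14% of all genes were, and 0 higher (9.92%). Both calls were lost without control_blank 016 (-0.97 and -0.86, adjusted p = 0.0955 and 0.0925) and without chronic_VCV 067 (-1.03 and -0.92, adjusted p = 0.0802 and 0.082), and that of Mertk without chronic_VCV 073 (-0.95, adjusted p = 0.0622). In chronic_VCV against healthy_VCV, Axl differed by -0.08 ± 0.25 and Mertk by -0.70 ± 0.25 (adjusted p = 0.866 and 0.0986). In control_chronic against control_blank, Axl rose by 1.11 ± 0.24 and Mertk differed by 0.46 ± 0.24 (adjusted p = 0.00646 and 0.188). For the same contrast under variable ventilation limma called 0 of 7 (0.966% of all genes higher and 1.69% lower). Axl was the 1 gene there at an unadjusted p under 0.05, and edgeR called 0.

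Mertk and Axl correlated with each other at r = 0.725 over the 28 libraries. With the macrophage markers Mertk had r = 0.705 and Axl 0.486, and with the neutrophil markers 0.682 and 0.2. In acute_VCV the macrophage markers had mean log2 levels of 11.59 to 12.26, against 11.52 to 12.09 in healthy_VCV. Csf1r, the receptor for the macrophage growth factor, fell by 0.49 ± 0.20 in acute_VCV against healthy_VCV (adjusted p = 0.0416), and Cd68, a lysosomal macrophage marker, differed by 0.05 ± 0.23 (adjusted p = 0.875).

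Gas6 (ENSRNOG00000018233), the ligand of both receptors, was highest without ventilation and lowest with acute injury. It was at 14102, 15567 and 11325 in control_blank and at 15090, 11755, 12539, 13899 and 16577 in control_chronic. Uninjured ventilated lungs held 8173, 8098, 6864 and 8205 in healthy_VCV, below all unventilated libraries, and 13042, 10778 and 8925 in healthy_noisy, which overlapped with them. Acutely injured lungs held 6272, 3777 and 3124 in acute_VCV and 6855, 2986, 1916 and 7555 in acute_noisy. In the last group the low pair, 047 and 050, were those of series 14 and the high pair, 046 and 053, those of series 15. Chronically injured ventilated lungs held 9861, 9459 and 7265 in chronic_VCV and 7582, 8917 and 8153 in chronic_noisy, all below control_chronic. In the order of mean log2 levels the one gap between neighbours lay between acute_VCV and healthy_VCV, whose ranges did not overlap. The acute_noisy values, up to 7555, overlapped with those of healthy_VCV and chronic_VCV.

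Gas6 fell by 1.69 ± 0.34 in acute_VCV (3.23-fold, adjusted p = 0.000442) and by 1.71 ± 0.31 in acute_noisy (3.26-fold, adjusted p = 8.73e-05) against control_blank. It fell by 0.79 ± 0.31 in healthy_VCV (1.73-fold, adjusted p = 0.034), a call lost without control_blank 016 or 021 or healthy_VCV 057 or 060 (adjusted p = 0.0893, 0.112, 0.0502 and 0.0743) and with quantile normalization (adjusted p = 0.0611). The difference in healthy_noisy was -0.33 ± 0.34 (adjusted p = 0.474). Against healthy_VCV, Gas6 fell by 0.90 ± 0.31 in acute_VCV (adjusted p = 0.0195), lost without acute_VCV 045 or 049 (adjusted p = 0.0677 and 0.113). Number series and group cannot be told apart in that comparison, so the fall cannot be assigned to the injury. Against healthy_noisy, Gas6 fell by 1.38 ± 0.31 in acute_noisy (2.6-fold, adjusted p = 0.00399). That call was lost with the series as a covariate (-0.90, adjusted p = 0.0596) and within series 15 (-0.58 ± 0.21, adjusted p = 0.521).

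In chronic injury Gas6 fell in chronic_noisy by 0.76 ± 0.30 (adjusted p = 0.0499), at the threshold: the call was lost without filtering low values (adjusted p = 0.0524), with quantile normalization (adjusted p = 0.0778), without the 2 control_chronic libraries of lowest depth (adjusted p = 0.088), and without any 1 of control_chronic_113, control_chronic_115, control_chronic_116, control_chronic_117 and chronic_noisy 075, 079 and 084 (adjusted p = 0.0831, 0.0582, 0.0752, 0.0896, 0.126, 0.081 and 0.125). In chronic_VCV the difference was -0.66 ± 0.30 (adjusted p = 0.139), which passed in a fit limited to the groups compared (adjusted p = 0.0156). Between the modes in acute injury Gas6 differed by -0.02 ± 0.31 (adjusted p = 0.976), and that mean joins opposite values, -0.81 with the series 14 libraries of acute_noisy (adjusted p = 0.011) and 0.78 with those of series 15 (adjusted p = 0.022).

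Mfge8 (ENSRNOG00000017510), the integrin bridge, moved least of the 7 genes. Its values were 13132, 13351 and 14459 in control_blank and 13460, 10441, 12323, 13058 and 12695 in control_chronic. They were 11677, 11903, 13184 and 16693 in healthy_VCV and 14892, 12863 and 15273 in healthy_noisy. All of these overlapped. In acute_VCV the values were 22295, 18248 and 18603, above every control_blank and healthy_VCV library, and in acute_noisy 11899, 20617, 15450 and 20270. The chronic groups held 11808, 16297 and 17628 (chronic_VCV) and 13029, 12774 and 15630 (chronic_noisy), within the range of uninjured lungs but for 17628.

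Mfge8 rose in acute_VCV over control_blank by 0.53 ± 0.18 (1.44-fold, adjusted p = 0.0262), lost without control_blank 016 or 021 or acute_VCV 040 (adjusted p = 0.0717, 0.0649 and 0.0929). Over healthy_VCV it rose by 0.57 ± 0.17 (1.49-fold, adjusted p = 0.00718). In acute_noisy the differences were 0.29 ± 0.17 over control_blank and 0.22 ± 0.17 over healthy_noisy (adjusted p = 0.148 and 0.339), and the first passed without acute_noisy 046. Gas6 and Mfge8 thus differed in sign where both passed, in acute_VCV, and had r = -0.545 over the 28 libraries.

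Other genes of dying cell clearance were read from a list of 42, of which 32 were found and tested. Over control_blank 11 rose and 5 fell in healthy_VCV, 7 and 1 in healthy_noisy, 10 and 4 in acute_VCV and 12 and 6 in acute_noisy, with median differences of 0.14, 0.02, 0.32 and 0.15 against -0.03, 0.01, 0.07 and 0.03 over all genes. Over all genes 29.3%, 17.5%, 20.6% and 31.3% rose and 28.1%, 14.6%, 16.7% and 28.4% fell in these groups, so the counts of this list that rose lie close to or somewhat above the share of all genes, and those that fell lie below it. Tyro3, the third receptor of the family, fell in each of the 4, by 0.69 ± 0.20 in healthy_VCV, 0.77 ± 0.22 in healthy_noisy, 0.59 ± 0.22 in acute_VCV and 0.80 ± 0.20 in acute_noisy (adjusted p = 0.00561, 0.0104, 0.0349 and 0.00173). Its mean ± SD was 379 ± 51.2 in control_blank (n = 3) and 234 ± 28.9 in healthy_VCV (n = 4). Over control_chronic Tyro3 fell by 0.68 ± 0.19 in chronic_noisy (adjusted p = 0.00889) and differed by -0.54 ± 0.19 in chronic_VCV (adjusted p = 0.0608).

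Some of these genes, named by their size of change, rose with Mertk and Axl. Lrp1, an endocytic receptor that takes part in uptake, rose by 1.85 ± 0.24 in healthy_VCV, 1.29 ± 0.26 in healthy_noisy and 1.91 ± 0.24 in acute_noisy (adjusted p = 2.67e-06, 0.000854 and 1.48e-06). Itgb3, an integrin subunit to which Mfge8 binds, rose by 2.33 ± 0.40 in healthy_VCV and 2.29 ± 0.40 in acute_noisy, and Rxra, the partner of nuclear lipid receptors, by 2.07 ± 0.25 in healthy_VCV. Like Mertk and Axl, Itgb3 and Rxra were lower in acute_VCV than in healthy_VCV, where they fell by 1.44 ± 0.40 and 1.74 ± 0.25 (adjusted p = 0.00457 and 5.32e-06), and higher in acute_noisy than in acute_VCV by 1.41 ± 0.40 and 1.11 ± 0.25 (adjusted p = 0.016 and 0.00476). Others of the list went the other way. P2ry6, Anxa1 and Lgals3 rose in acute_VCV over healthy_VCV, by 1.52 ± 0.36, 1.025 ± 0.16 and 0.81 ± 0.21. C1qa, Dnase2a and Nr1h2 were lower in acute_noisy than in acute_VCV (-0.53, -0.41 and -0.31). Over all genes 26.1% rose and 26.4% fell in the first of these comparisons, and 11.9% and 12.3% in the second. Gulp1, an adaptor for engulfment receptors, fell by 1.82 ± 0.26 in acute_VCV and by 1.18 ± 0.25 in acute_noisy over control_blank. Adam17, the protease that sheds Mertk from the cell surface, rose by 0.62 ± 0.19 in acute_VCV and 0.67 ± 0.18 in acute_noisy (adjusted p = 0.0121 and 0.00238). The complement components C1qb and C1qc, which tag dying cells, rose over control_chronic in chronic_VCV by 1.17 ± 0.21 and 1.15 ± 0.19 (adjusted p = 0.00111 and 0.000462).

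Of 37 further genes of inflammatory macrophage activation, 34 were tested. Over control_blank 15 rose and 1 fell in healthy_VCV, 10 and 0 in healthy_noisy, 19 and 0 in acute_VCV and 24 and 0 in acute_noisy, with medians of 0.71, 0.55, 1.19 and 1.79 against -0.03, 0.01, 0.07 and 0.03 over all genes. The shares of all genes that rose were 29.3%, 17.5%, 20.6% and 31.3%, as above. Clec4e, a receptor for damaged cells and mycobacteria, rose in the same 4 groups as Irg1, by 3.56 ± 0.54, 3.89 ± 0.57, 4.45 ± 0.57 and 4.73 ± 0.54 in these groups. Il6 did not share this pattern with ventilation alone: it differed by 0.12 ± 1.20 in healthy_VCV and 0.49 ± 1.28 in healthy_noisy (adjusted p = 0.938 and 0.796), but rose by 7.02 ± 1.28 in acute_VCV and 6.65 ± 1.20 in acute_noisy (adjusted p = 0.000199 and 6.88e-05). Its mean ± SD was 2.63 ± 1.61 in control_blank (n = 3), 3.51 ± 2.56 in healthy_VCV (n = 4) and 491 ± 278 in acute_VCV (n = 3).

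Genes that supply or limit Nos2 moved unequally. Slc7a2, the arginine transporter, rose by 2.83 ± 0.51 in healthy_VCV and 2.54 ± 0.51 in acute_noisy (adjusted p = 6.59e-05 and 0.000191), differed by 0.45 ± 0.54 in acute_VCV (adjusted p = 0.532), and was lower there than in healthy_VCV, where it fell by 2.38 ± 0.51 (adjusted p = 0.000409). Gch1, which starts the synthesis of the cofactor tetrahydrobiopterin, rose by 1.22 ± 0.51 in healthy_VCV, 1.55 ± 0.55 in acute_VCV and 2.20 ± 0.51 in acute_noisy (adjusted p = 0.0445, 0.0286 and 0.000812), and differed by 0.69 ± 0.55 in healthy_noisy (adjusted p = 0.342). Arg1, which competes for arginine, rose by 0.97 ± 0.38 in acute_VCV and 1.02 ± 0.36 in acute_noisy (adjusted p = 0.0471 and 0.0164). Ass1, which recycles arginine from citrulline, passed in none of these (0.18 ± 0.21 in acute_noisy, adjusted p = 0.471).

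Of 28 genes of resident and alternatively activated macrophages, 23 were tested. Over control_blank 12 rose and 3 fell in healthy_VCV, 12 and 1 in healthy_noisy, 12 and 2 in acute_VCV and 15 and 1 in acute_noisy, with medians of 0.78, 0.79, 0.73 and 1.02, beside the same shares and medians of all genes. Cd163, the haemoglobin scavenger receptor, rose by 2.81 ± 0.56 in healthy_VCV, and Msr1, a scavenger receptor of the same class as Marco, by 2.52 ± 0.56 (adjusted p = 0.000207 and 0.00063). Csf2rb, a receptor subunit for the growth factor that sustains alveolar macrophages, rose by 3.41 ± 0.49 in healthy_VCV and 4.89 ± 0.49 in acute_noisy. Car4, which lung endothelium also makes, fell by 1.60 ± 0.31 and 1.68 ± 0.31 in the same groups. The other 2 genes of the list that fell in healthy_VCV were Trem2, a lipid receptor of macrophages, by 1.19 ± 0.41, and Retnla, a marker of alternative activation, by 1.90 ± 0.77 (adjusted p = 0.0157 and 0.0378). Over control_chronic, 7 rose and 1 fell in chronic_VCV, where 6.89% of all genes rose and 7.9% fell, and 12 rose and 2 fell in chronic_noisy, where 19.1% rose and 18.1% fell.

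The nearest patterns among all tested genes with a symbol were sought by Pearson's r of log2 levels over the 28 libraries, as a description. Nearest to Irg1 were Il1rn (0.968), the antagonist of interleukin-1, and Gpr84 (0.964). Il1rn was also nearest to Gpr84 (0.966). Nos2 lay nearest to Pim1 (0.974), Csf3r (0.973), the receptor for the neutrophil growth factor, and Csf2rb (0.973). Mertk lay nearest to Edem1 (0.973), Foxo3 (0.964) and Osbpl11 (0.964), Axl to Ano10 (0.926), and Gas6 to Apbb1 (0.967) and Adi1 (0.963). Mfge8 had no close companion, the nearest being SNORD75 at 0.778.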

How the data were processed

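Lung RNA of 28 libraries in 8 groups was measured by strand-specific sequencing of polyadenylated RNA on an Illumina instrument, per the labels' protocols. Per the submitters' processing notes, CASAVA 1.8.0, BWA, bedtools, DESeq 1.8.3 and genome build rn4 were used, with no role given for each, and per the file headers the genes are those of Ensembl version 67. The counting of strands and of ambiguous reads is not given in the sources used here.

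The deposited signal of each gene is a read count that the authors divided by a size factor per library. In each library 100.0% of the values came out as whole multiples of 1 step within 0.1 read, so whole reads were recovered. Replicates differed by a chi-square per gene of 13.49 or more, so no library was counted as a repeat of another.

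Low genes, with a mean under 10, were left out, and the remaining 14908 of 17002 were modelled as log2(value + 1) in limma 3.58.1 under R 4.3.3 (8 group means, intensity trend, robust prior). The 14 comparisons between groups and 3 differences between contrasts were tested two-sided, and p-values were adjusted by Benjamini-Hochberg in each comparison across every tested gene, with a threshold of 0.05. Every adjusted p in the text comes from limma unless edgeR is named. On simulated data for healthy_VCV against control_blank (14908 genes), 94% of 4-fold and 51% of 2-fold changes were recovered. For acute_noisy against acute_VCV these were 89% and 49%. The simulations left 14708 genes unchanged and held no effect of number series, so these rates may not carry over to the real comparisons. Alternatives were edgeR 4.0.16 (quasi-likelihood, TMM) on recovered reads, quantile normalization, an added value of 10, keeping low genes, fitting only the groups compared, each library left out in turn, the number series as a covariate or limit, and control_chronic without its 2 shallowest libraries. Promoters and figures were handled in Python 3.11.15 with pandas 2.3.3 and matplotlib 3.10.9.

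The members and all gene lists were chosen with earlier results of these data known. Named genes were all members, fixed further genes of the pathway, up to 3 highest and 3 lowest called genes of each pathway list in a comparison, and for each member the 3 nearest genes by correlation.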

Additional observations from a re-analysis of the deposited data

Results flagged for a closer look

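Among 21 sets of a gene in a group of 4 or 5 libraries, 2 held a library far from the rest, where chance alone gives about 1 in 20. Gas6 in healthy_VCV was 6864 in library 060, below the other 3. Gpr84 in control_chronic was 17.8 in control_chronic_114, above the other 4, a value that rests on 9 reads.

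For 2 genes an effect differed between groups by a test of the difference itself (limma, Benjamini-Hochberg adjusted). The effect of constant ventilation, chronically injured minus uninjured lungs, was -1.16 for Mertk and -1.19 for Axl (adjusted p = 0.0216 and 0.0172). The effect of variable against constant ventilation, acutely injured minus uninjured lungs, was 1.38 for Mertk (adjusted p = 0.00457). These contrasts cross number series, and series and group cannot be told apart in them.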

How the results depend on the processing

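Of 714 values of single genes under the alternatives other than leaving out a library, 679 kept their direction and side of the threshold, 20 lost a call, 14 gained one and 1 reversed. Signs were read only where a value was called. The reversal was Gas6 between the modes in acute injury, which was 0.78 with the acute_noisy libraries of series 15 only. Of 7 genes, those called for acute injury under variable ventilation numbered 2, but 4 with edgeR, 0 in a fit limited to the groups compared, 0 with the number series as a covariate, 0 within series 15, 4 with acute_noisy of series 14 only and 0 with acute_noisy of series 15 only. Of all 14908 genes, the fits without a call among the 7 called 8 (limited), 732 (covariate), 0 (within series 15) and 153 (acute_noisy of series 15 only), against 3987 as reported. Those called between modes in acute injury numbered 2, but 0 in the limited fit, which called 0 of all genes, 4 with series 14 only and 1 with series 15 only. Those called between modes in uninjured lungs numbered 0, but 2 in the limited fit. Those called for the difference between these mode effects numbered 1, but 2 with edgeR and 2 in the limited fit.

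Leaving out 1 library at a time gave 980 values, of which 922 kept their call, 42 lost one and 16 gained one. Genes called then ranged, over control_blank, from 4 to 6 in healthy_VCV, 5 to 5 in healthy_noisy, 4 to 6 in acute_VCV, 6 to 7 in acute_noisy and 0 to 1 in control_chronic. Over control_chronic they ranged from 2 to 4 in chronic_VCV and 4 to 5 in chronic_noisy. Acute injury gave 3 to 7 under constant and 1 to 4 under variable ventilation, and chronic injury 0 to 1 and 0 to 0. The modes gave 0 to 0 in uninjured, 0 to 3 in acutely and 0 to 1 in chronically injured lungs. The differences gave 0 to 2 (constant ventilation), 0 to 0 (variable ventilation) and 1 to 3 (mode).

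The contrasts of acute_noisy and chronic_noisy with healthy_VCV within series 14, and of chronic_VCV with healthy_noisy within series 15, were added after seeing the data, and no gene of the 7 was called in the last 2. The series covariate gave no value where a comparison crosses series 12 or 18. Gpr84 without ventilation rests on 1 to 9 reads, so small changes there were not detectable. No paired analysis was possible because no replicate number occurs in more than 1 group.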
